A study of Bos grunniens with 6 samples.

Results

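The genes described here are the writers, erasers and readers of histone marks, the enzymes of DNA methylation and the subunits of chromatin remodelling complexes that carried an N6-methyladenosine (m6A) peak in the testis of the cattle-yak. They were chosen by symbol alone, as the peak list names them: the KMT, SETD, SETDB, SUV, EHMT, NSD, EZH, KDM, HDAC, SIRT, KAT, BRD, BAZ, PHF, ING, PRDM, CHD, SMARC, ARID, INO80 and ASXL families, the DNMT and TET enzymes, and EED, SUZ12, DOT1L, EP300, CREBBP, EP400 and ATRX. The rule found 143 gene identifiers with 127 symbols, of 8986 identifiers with a peak, and these held 379 of the 16186 listed peaks. Every one of them has a peak because the rule reads the peak list, so their having one is no result. NSDHL, a sterol enzyme, entered by its letters only, and SETD3, which carries a SET domain, is best known for methylating actin.

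The study mapped m6A by immunoprecipitating fragmented RNA with an antibody against the modification (MeRIP-seq) and sequencing the pulled-down RNA beside untreated RNA of the same testis, the input. The single group in the data used here was 3 healthy cattle-yaks, TES5, TES6 and TES7, each 5 years old. Their testes were removed by castration and frozen in liquid nitrogen. Cattle-yaks are hybrids of yak and cattle, and the males are sterile. These data held 6 libraries, an immunoprecipitate and an input for each animal, and no yak, cattle or treated group. The paper also compared its cattle-yaks with yaks before and after sexual maturity, published earlier, and those yak samples are not among the data used here. The deposited peaks are 1 list for all 3 animals, with no height, score or value per animal, while gene levels are given for each input library as FPKM (fragments of each gene scaled by its length and by the mapped fragments of the library). No comparison between conditions was therefore possible here, and the replicates are animals.

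N6-methyladenosine is placed on messenger RNA in the nucleus by a methyltransferase complex, can be removed by demethylases, and is bound by reader proteins that affect splicing, translation and decay of the transcript. In many mammalian tissues it is found most often in long internal exons and around the stop codon. Histone methyltransferases, acetyltransferases and their opposing enzymes set the marks on nucleosomes, PHD finger and bromodomain proteins read them, and ATP-driven remodellers move or replace nucleosomes. In male germ cells these activities are needed for the silencing of the sex chromosomes, for recombination and for the packing of the genome in spermatids.

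The whole-testis label was checked against markers of its cells, as far as a marker's symbol could be tied to an identifier, which the files allow only for genes with a peak. The Leydig cell marker STAR stood at 107 FPKM and the peritubular myoid marker ACTA2 at 237 FPKM, and the Sertoli markers SOX9 and WT1 at 27.5 and 29.6 FPKM. Of the 8 spermatogonial markers, 3 had an identifier and lay between 0.790 and 10.02 FPKM, and 5 of 7 spermatocyte markers lay between 2.92 and 20.7 FPKM. Of 7 spermatid markers only TEX29 had an identifier, at 2.37 FPKM, and no level is known here for the protamines or transition proteins. All 3 macrophage markers were present at 3.53 to 4.92 FPKM. In a whole testis, fewer cells of a type and less RNA per cell cannot be told apart.

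The symbol rule matched 179 symbols of any gene type in the RefSeq yak annotation (assembly Bosgru_T2T1.0, used for names only). Of these, 126 appeared in the peak list, or 70.4%, beside 45.2% of all 16457 named protein-coding symbols. BRD3OS, CHD9NB and EZHIP, none of them in the peak list, were among the 179 and were given their role by their letters only. All 5 Polycomb partners, 14 of 16 histone demethylases and 8 of 10 acetyltransferases were in the list. The share was lower for histone methyltransferases, with 20 of 32, for deacetylases, with 11 of 18, and for bromodomain and PHD finger proteins, with 22 of 34. The remodelling complexes had 29 of 40 symbols and the DNA methylation enzymes 4 of 7. Symbols without an entry included the methyltransferases KMT2A, KMT2D, SETD1A, SETD1B, SETD2, NSD2 and SUV39H2, the meiotic recombination factor PRDM9, the germ cell factor PRDM14, the methylation enzymes DNMT3B, DNMT3L and TET2, and the remodellers CHD4, INO80 and ARID1B. A missing symbol does not show that a gene had no peak, since 211 identifiers in the peak list carry no symbol, and levels of peakless genes could not be read because the expression table holds identifiers only.

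The chromatin genes carried several peaks more often than the other genes of the list. Of the 143, 93 had 2 or more peaks (65.0%, Wilson 95% interval 56.9 to 72.4), beside 46.0% of all genes with a peak. 23 had 5 or more (16.1%, interval 11.0 to 23.0), beside 3.08% of the other genes. By number, 50 had 1 peak, 33 had 2, 21 had 3, 16 had 4, 13 had 5, 6 had 6, and 1 gene each had 7, 8, 9 and 11. The mean was 2.65 peaks per gene, beside 1.79 in the other genes. The intervals cover counting error only, and no test between animals was possible.

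These genes were also longer, and the difference in peak number lay in the identifiers with longer listed transcripts. The median span of the listed transcript, introns included, was 51884 bp beside 28033 bp for the other genes, and the median exon number among exon class peaks was 22 beside 11. Below 20 kb the 31 chromatin genes had 1.19 peaks each and the other genes 1.46. Between 20 and 60 kb the means were 2.31 and 1.81, between 60 and 120 kb 3.45 and 2.10, and from 120 kb upward 3.88 and 2.33. The 31 below 20 kb include short identifiers of symbols found on several, such as the 3 each of ING2 and PHF24, so they are not all short genes. How often this holds for the other genes was not taken. Across the 143 genes the peak number rose with span (Spearman rho 0.54) and had little relation to mean FPKM (rho -0.09). These are correlations across genes of 1 peak list, where span also sets how many exons a peak can fall in.

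Each peak carries an annotation class, exon, 3' UTR or 5' UTR, and may extend over introns. Of the 379 peaks 292 were of the exon class (77.0%, interval 72.6 to 81.0), 53 of the 3' UTR class (13.98%, 10.9 to 17.8) and 34 of the 5' UTR class (8.97%, 6.49 to 12.3), beside 70.2%, 21.0% and 8.81% in the other genes. Wide peaks were common: the width quartiles were 449, 2009 and 7002 bp, beside 298, 1000 and 4857 bp. Among the 152 peaks of at most 1000 bp, which place the mark more closely, the shares were 71.7% exon, 19.1% 3' UTR and 9.21% 5' UTR, beside 64.3%, 28.3% and 7.42% in the other genes. The lower 3' UTR share was thus seen among narrow peaks too, and its relation to gene length was not tested.

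By gene, 82 of the 143 had exon class peaks only, 43 had a 3' UTR class peak, 30 had a 5' UTR class peak and 10 had all 3 classes. The 17 without an exon class peak comprised 10 with 3' UTR class peaks only, 5 with 5' UTR class peaks only and 2 with both. These counts by gene were not made for the other genes, so they show no trait particular to the chromatin genes. Among narrow exon class peaks on transcripts of 3 or more exons, 21 of 101 lay in the last exon (20.8%), where an equal spread over exons would give 6.97%. The corresponding values in the other genes were 25.7% and 12.9%. Exons differ in length, which this spread does not take into account.

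**Figure D1:**
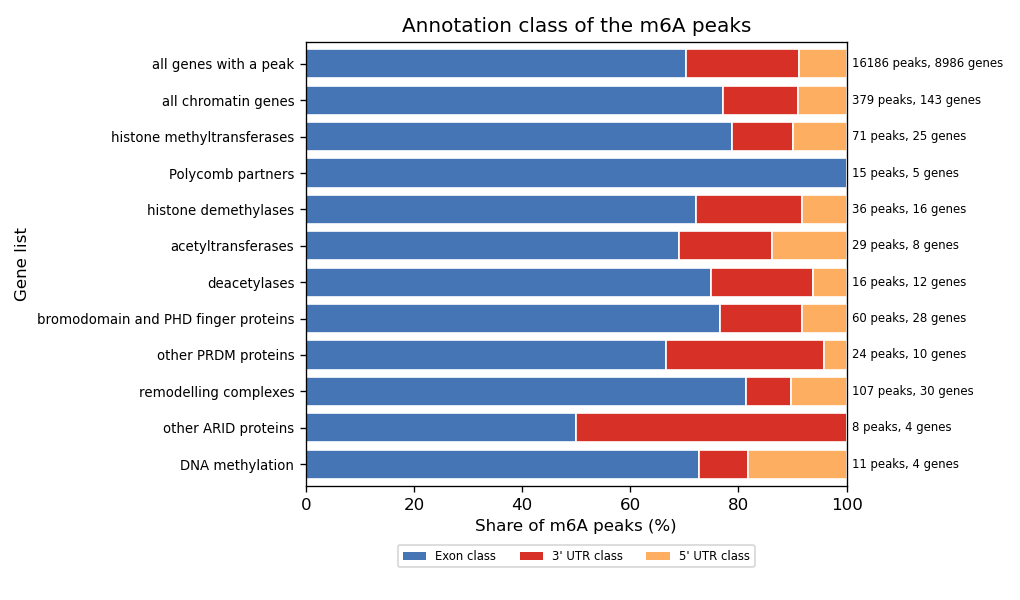
Horizontal bars give the share of m6A peaks (%) in the exon, 3' UTR and 5' UTR annotation classes for all genes with a peak, for the 143 chromatin genes and for their groups by role, with peak and gene numbers at the right. The exon class held 77.0% of the 379 chromatin gene peaks and all 15 peaks of the Polycomb partners.

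KMT2C, a histone H3 lysine 4 methyltransferase of enhancers, had the most peaks, 11, followed by the remodellers CHD9 with 9 and CHD6 with 8 and the bromodomain protein BAZ2B with 7. The H3 lysine 9 methyltransferase family member SETDB2, the Polycomb-associated ASXL3, the acetyltransferases EP300 and CREBBP and the remodelling proteins BAZ1A and CHD1 had 6 each. These are peaks as listed. With peaks at most 100 bp apart merged, KMT2C had 10, EP300 and ASXL3 5, and CREBBP and CHD1 4, while the other genes named here kept their number. The first 4 had mean levels of at most 8.63 FPKM, while EP300 and BAZ1A were each at 26.1 FPKM, above the upper quartile of the 143 identifiers (23.2 FPKM).

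**Figure D2:**
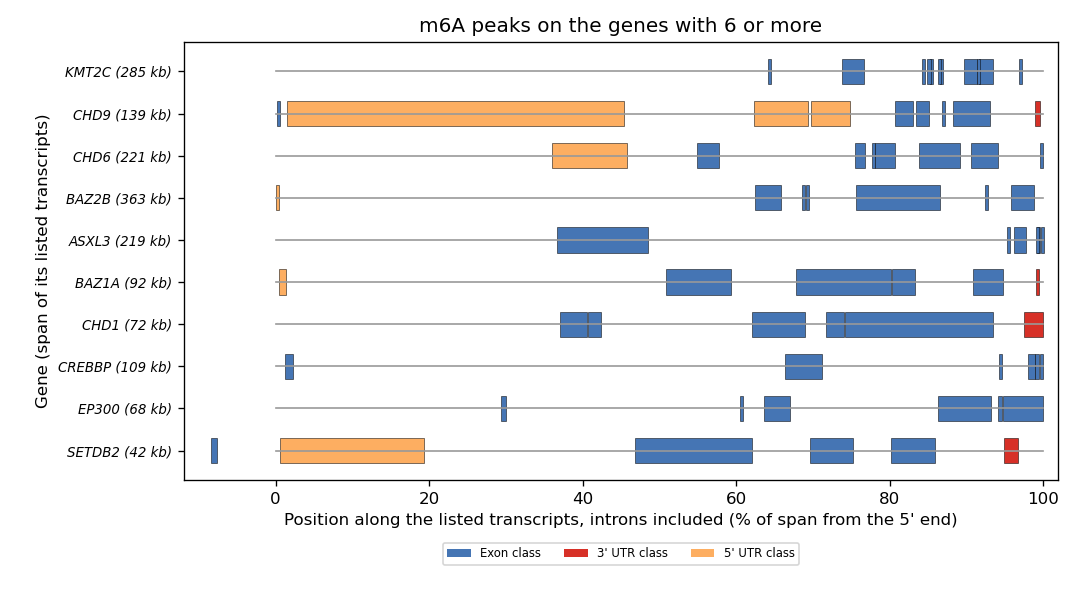
Boxes give the position of each m6A peak along the listed transcripts of the 10 genes with 6 or more peaks, as a percent of their span from the 5' end with introns included, coloured by annotation class. Peaks of KMT2C lay in the later part of the gene, and CHD9 had a 5' UTR class peak of 61088 bp; the leftmost SETDB2 box lies outside the listed transcript.

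KMT2C (ENSBGRG00000008413, assembly LU_Bosgru_v3.0, chromosome 4, 9919287 to 10204046, minus strand) had all 11 peaks in the exon class, in exons 15, 25, 38, 39, 41, 45, 46 and 55 of 62, with 2 peaks each in exons 39, 41 and 46. Their widths ran from 300 to 8127 bp. Its level was 7.70 FPKM in TES5, 8.98 in TES6 and 9.21 in TES7, lowest in TES5. A further identifier of the same symbol, ENSBGRG00000008491, lies inside it on the opposite strand (10156697 to 10192113) and was listed at 88.4, 91.1 and 101 FPKM, 10.8-fold above the long gene in mean. Its only peak, a 5' UTR class peak of 109275 bp, was the second widest of the 379. Whether reads were assigned by strand is not given in the sources used here, so reads of the nested models cannot be told apart.

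EP300 and CREBBP, related acetyltransferases that act as coactivators, carried 6 listed peaks each (5 and 4 after merging), and both had a peak in exon 2. EP300 (chromosome 5, 120636115 to 120703924, plus strand) had peaks in exons 2, 14, 15, 27 and 31 of 32, with 2 in exon 31, and CREBBP (chromosome 26, 44361960 to 44470903, plus strand) in exons 2, 16, 29 and 33 of 33, with 3 in its last exon. All 12 peaks were of the exon class. EP300 was at 21.6, 27.4 and 29.4 FPKM and CREBBP at 6.06, 7.89 and 7.61 FPKM in TES5, TES6 and TES7, so that EP300 was the higher in each animal and TES5 was lowest for both.

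The 25 identifiers of histone methyltransferases had 71 peaks and a median level of 16.7 FPKM, and 19 had 2 or more peaks. Beside KMT2C, the H3 lysine 4 enzymes KMT2B and KMT2E had 5 and 4 peaks, all of the exon class. KMT2B (chromosome 20, 70080198 to 70103870, minus strand) had them in exons 3, 18, 29 and 32 of 38, with 2 in exon 3, and its level was 16.99, 23.3 and 21.0 FPKM, lowest in TES5. KMT2E, which has a SET domain but no firmly established activity on histones, was at 8.47, 10.1 and 9.71 FPKM. Both were lowest in TES5 and had their highest level in TES6.

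NSD1, which methylates H3 lysine 36, had 4 exon class peaks and 14.8, 18.1 and 18.2 FPKM, again lowest in TES5. NSD3, of the same family, had 5 peaks of which 3 were of the 3' UTR class, at 4.53, 4.33 and 4.54 FPKM, nearly even between animals. SETDB2 had 6 peaks at 5.59, 7.67 and 6.22 FPKM, and 1 of them, a 298 bp peak, lay outside its listed transcript. SETDB1, an H3 lysine 9 methyltransferase that silences retroelements, had 2 exon class peaks (exons 13 and 15 of 22) at 25.2, 21.9 and 22.9 FPKM, and 1 of these fell where the gene overlaps CERS2 on the opposite strand. The X-linked SUV39H1, which trimethylates H3 lysine 9 in heterochromatin, had an exon class peak and a 197 bp 3' UTR class peak at 12.7, 12.4 and 13.4 FPKM.

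EHMT1 and EHMT2, which form the complex that dimethylates H3 lysine 9, had 2 peaks and 1 peak, all of the exon class. EHMT1 stood at 26.8, 27.2 and 30.3 FPKM and EHMT2 at 15.7, 18.2 and 17.7 FPKM. DOT1L, the H3 lysine 79 methyltransferase, was split over 3 identifiers on both strands of chromosome 8 with 6 exon class peaks in all. The best expressed of them, with 3 peaks, was at 19.98, 16.6 and 16.6 FPKM, highest in TES5. SETD7, an H3 lysine 4 methyltransferase, appeared on 2 identifiers, and the one at 1.53, 1.24 and 2.09 FPKM had a CV of 26.5%.

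The catalytic subunits of Polycomb complex PRC2, which methylates H3 lysine 27, had few peaks. EZH2 (chromosome 4, 7276789 to 7328594, minus strand) had a single 994 bp peak of the 3' UTR class and was at 39.1, 32.2 and 30.1 FPKM, highest in TES5. EZH1 had a single exon class peak of 4136 bp and was at 14.7, 17.6 and 17.9 FPKM, lowest in TES5. The related pair thus differed in the class of its peak as well as in level, and with 1 peak each no test of the class was possible.

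The 5 Polycomb partners had 15 peaks, all of the exon class, and a median of 20.01 FPKM. SUZ12, a core subunit of PRC2, had 3 peaks in exons 7, 14 and 16 of 16, the last exon among them, and was at 19.9, 21.2 and 23.1 FPKM. EED, the subunit that binds methylated H3 lysine 27, had a single 6143 bp peak annotated to the first exon and was at 24.5, 16.2 and 19.4 FPKM, highest in TES5. The ASXL proteins are cofactors of the enzyme that removes ubiquitin from histone H2A. ASXL3 had 6 peaks, in exons 4, 11, 13 and 14 of 14, at only 1.14, 1.26 and 1.49 FPKM. ASXL1 had 2 peaks, in exons 10 and 14 of 14, at 21.9, 27.3 and 26.6 FPKM, so that the family member with the most peaks was the one with the lowest level.

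The 16 identifiers of histone demethylases had 36 peaks and a median of 16.1 FPKM. KDM3B, which acts on H3 lysine 9, and KDM4C, which acts on H3 lysines 9 and 36, had the most with 5 each. KDM3B was at 21.8, 25.6 and 24.2 FPKM and KDM4C at 7.20, 7.24 and 8.32 FPKM. KDM1A, the flavin-dependent H3 lysine 4 demethylase, had a peak in each of the 3 classes and was at 44.6, 39.3 and 38.3 FPKM, highest in TES5. KDM5B, an H3 lysine 4 demethylase known for its high testis expression, was the best expressed at 81.5, 66.0 and 70.7 FPKM with an exon class and a 3' UTR class peak. A second KDM5B identifier downstream on the same strand had 3 peaks at 0.725, 1.24 and 0.874 FPKM, so the symbol covers transcripts of very unlike level.

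The KDM5 relatives KDM5C, which is X-linked, and KDM5A had 3 peaks and 1 peak on their main identifiers, all of the exon class. KDM5C was at 21.3, 21.1 and 23.9 FPKM. KDM5A was at 13.7, 13.4 and 16.96 FPKM on its long identifier. A 447 bp identifier of the same symbol, nested in it on the opposite strand and enclosed by a 12318 bp peak, was listed at 24.5, 17.5 and 27.3 FPKM. The H3 lysine 27 demethylases KDM6A, X-linked, and KDM6B had 3 and 2 exon class peaks. Both KDM6B peaks were in exon 8 of 22. KDM6A stood at 5.99, 8.47 and 8.10 FPKM and KDM6B at 15.5, 19.6 and 17.6 FPKM, with TES5 lowest for both.

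The 12 identifiers of deacetylases, which remove acetyl groups from histones and other proteins, had the fewest peaks for their number, 16 in all, and only 4 had 2. Their median of 15.6 FPKM was near that of the methyltransferases. HDAC1, a catalytic subunit of several corepressor complexes, had a single 768 bp peak in exon 10 of 12 and was at 51.3, 44.9 and 49.7 FPKM. HDAC2, its close relative, had an exon class and a 3' UTR class peak at 22.2, 25.5 and 24.7 FPKM. The other genes with 2 peaks were HDAC4, HDAC5 and HDAC7, at 2.95, 19.1 and 5.89 FPKM in mean, with SDs of 0.381, 0.899 and 0.777 (n = 3), and these belong to the class that shuttles between nucleus and cytoplasm. SIRT1, a NAD-dependent deacetylase, had a single 3881 bp peak in exon 8 of 9 at 16.1, 14.4 and 15.1 FPKM.

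The 8 acetyltransferases had 29 peaks, 7 had 2 or more, and their median was 16.1 FPKM. KAT8, which acetylates H4 lysine 16, was the best expressed at 43.5, 30.6 and 27.9 FPKM, and it had 1 exon class peak of 4791 bp. It was highest in TES5, unlike EP300 and CREBBP. KAT2B, an H3 acetyltransferase, had 3 peaks of the 3' UTR class only, at 18.1, 25.6 and 19.2 FPKM. KAT6A and KAT6B, the catalytic subunits of H3 acetyltransferase complexes, each had peaks of all 3 classes, and were at 11.3 ± 0.725 and 9.02 ± 1.40 FPKM (SD, n = 3). KAT2B, KAT6A and KAT6B were chosen after their values were seen.

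The 28 identifiers of bromodomain and PHD finger proteins had 60 peaks and a median of 9.43 FPKM, and 13 had 2 or more peaks. BRD2, which binds acetylated histone H4, had the highest mean level of all 143 identifiers at 95.6, 96.3 and 95.4 FPKM and also the smallest CV, 0.474%. Its only peak was of the exon class, 1774 bp wide. BRDT, the testis-specific member of the same family, which is needed for meiosis and for replacing histones in spermatids, had 2 narrow exon class peaks in exons 7 and 16 of 18. It was at 2.96, 2.41 and 1.67 FPKM, with the largest CV of those at 1 FPKM or more in every animal (27.6%). In the FPKM as given BRD2 was thus even between animals. Rescaling the libraries to equal sums would set its values further apart, with factors of 0.958 in TES5 and 1.03 in TES6. BRDT was highest in TES5 and lowest in TES7, at low levels of unknown read depth. The spermatid marker TEX29 (3.70, 2.41 and 0.989 FPKM) and the spermatocyte markers SYCP2 and MLH3 had that order too, while the spermatocyte markers SYCP1, SYCP3 and DMC1 were highest in TES5 but lowest in TES6.

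Among the PHD finger proteins PHF3 and PHF20L1 had the most peaks, 5 each, at 11.3 ± 1.03 and 5.45 ± 0.297 FPKM (SD, n = 3). PHF21A, a subunit of the corepressor that holds KDM1A, was at 8.05, 10.8 and 10.2 FPKM and held the widest peak, a 5' UTR class peak of 133890 bp on chromosome 13 from 28827883 to 28961772. Peaks of that width cannot place the mark. PHF20, a subunit of the KAT8 complex, had a single-exon second identifier with a 535 bp peak at 72.4, 68.9 and 60.7 FPKM, while its long identifier with 4 peaks was at 8.79 ± 0.850 FPKM.

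The 10 other PRDM identifiers, zinc finger proteins of which several act as transcriptional regulators in development, had the lowest median level, 2.01 FPKM, and yet 24 peaks. PRDM10 and PRDM11 had 5 each. PRDM10 was at 2.87, 3.72 and 3.61 FPKM and PRDM11 at 1.02, 1.65 and 1.35 FPKM. PRDM1, a repressor that directs the specification of primordial germ cells, had 4 peaks, with a peak of each UTR class and 2 exon class peaks between them, at 2.40, 3.54 and 3.48 FPKM. All 3 genes were lowest in TES5. PRDM13 was found on a short single-exon identifier at 26.1, 18.6 and 21.7 FPKM and on a multi-exon identifier at 1.15 ± 0.154 FPKM. PRDM13 is best known from the nervous system, and its identity on the short identifier rests on the symbol in the peak list.

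The remodelling complexes were the largest group, with 30 identifiers, 107 peaks, a median of 14.01 FPKM and 23 identifiers with 2 or more peaks. CHD9 (chromosome 20, 26262564 to 26401561, minus strand) had 9 peaks, 5 of the exon class, 3 of the 5' UTR class and 1 of the 3' UTR class, at 4.67, 6.23 and 5.79 FPKM. CHD6 (chromosome 12, 65039469 to 65260184, minus strand) had 7 exon class peaks, in exons 9, 20, 23, 25, 29, 33 and 39 of 39, and a 5' UTR class peak, at 5.53, 6.65 and 6.72 FPKM. CHD1, which binds trimethylated H3 lysine 4, had 6 peaks at 9.44, 10.4 and 11.99 FPKM. All 3 of these ATP-driven helicases were lowest in TES5. CHD5, a remodeller known from spermatids and neurons, had a single 399 bp peak in exon 32 of 42 and was listed at only 0.865, 0.781 and 0.507 FPKM.

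SMARCA5, the ISWI ATPase, was the best expressed remodeller at 60.2, 72.6 and 72.8 FPKM with 3 exon class peaks in exons 2, 12 and 22 of 24. BAZ1A, its partner in the ACF complex, which is known to be needed for spermatogenesis, had 6 peaks of all 3 classes at 24.2, 28.3 and 25.8 FPKM. BAZ2B, with 7 peaks, was at 2.84, 2.87 and 2.70 FPKM, a spread of 3.18% (CV), while BAZ2A, a subunit of the complex that silences ribosomal genes and chosen after its values were seen, had 4 exon class peaks of 201 to 1052 bp at 35.5, 45.2 and 50.0 FPKM. Within these partners the peak number did not follow the level.

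In the SWI/SNF complex, ARID1A, its DNA-binding subunit, had 4 peaks, 3 of the exon class and 1 of the 3' UTR class, at 14.1, 17.6 and 19.5 FPKM. The alternative ATPases SMARCA2 and SMARCA4 had 3 and 4 peaks. SMARCA2 was at 22.3, 25.7 and 29.1 FPKM and SMARCA4 at 26.0, 25.4 and 27.3 FPKM, so that they overlapped between animals. The scaffold subunits SMARCC1 and SMARCC2 had 4 and 2 peaks, at 19.6, 17.9 and 17.8 FPKM and at 9.64, 11.5 and 12.5 FPKM.

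EP400, the ATPase that deposits histone variant H2A.Z, had 5 exon class peaks, in exons 1, 4, 7, 36 and 51 of 54, at 7.05, 9.93 and 9.74 FPKM. INO80D, a subunit of the INO80 remodeller, also had 5 peaks, at 1.09, 1.86 and 1.74 FPKM. Its CV between animals was 26.5%. The X-linked ATRX, which works with DAXX to deposit histone H3.3 in repeats, had 3 exon class peaks, of which the widest, annotated to exon 11 of 35, spanned 50556 bp, at 1.24, 1.83 and 1.48 FPKM. All 3 were lowest in TES5. The ARID4B subunit of the SIN3 corepressor had 3 peaks and was nearly even between animals at 16.3, 17.2 and 16.8 FPKM.

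Of the 4 other ARID identifiers, with 8 peaks and a median of 7.69 FPKM, ARID5B had the most peaks, 3, and ARID5A the highest level. ARID5B, a partner of a PHD finger demethylase, was at 5.07, 7.20 and 8.16 FPKM, and 1 of its peaks, 200 bp wide, lay outside the listed transcript. ARID5A, an RNA-binding member of the family, was at 13.2, 11.8 and 9.99 FPKM with 1 exon class peak. The order of the animals was thus opposite in these relatives.

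The DNA methylation enzymes in the list were DNMT1, DNMT3A, TET1 and TET3, with 11 peaks and a median of 3.41 FPKM. DNMT1, which copies methylation at replication (chromosome 8, 14986265 to 15033063, minus strand), had 2 exon class peaks, in exons 3 and 20 of 41, and was at 15.3, 16.9996 and 13.6 FPKM. DNMT3A, which sets methylation anew (chromosome 9, 98693123 to 98781778, plus strand), had a peak of each class at 4.83, 5.997 and 5.13 FPKM. Both had their highest level in TES6, with CVs of 11.1% and 11.4%.

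The TET enzymes oxidise methylated cytosine. TET3 (chromosome 9, 28989071 to 29106452, minus strand) had 5 peaks at a level of only 1.19, 1.69 and 1.59 FPKM. They lay in the 5' UTR class, in exon 3, at 2 places in exon 4 and in exon 13, the last of 13, and were 151 to 1149 bp wide. TET1 had a single 151 bp peak in exon 4 of 13 and was listed at 0.173, 0.499 and 0.418 FPKM, the lowest mean of the 143 identifiers.

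The median level of the chromatin genes was 11.2 FPKM (quartiles 5.38 and 23.2), beside 7.30 for the other genes with a peak and 2.11 for all 20953 genes. The medians by animal were 10.2 in TES5, 11.5 in TES6 and 11.2 in TES7. At 1 FPKM or more in every animal were 134 of 143 (93.7%), beside 84.8% of the other genes with a peak. Above 20 FPKM in mean were 48, above 50 were 7, and 6 had a mean below 1. The median CV between animals was 9.87%, beside 11.6%. It was 5.12% without TES5, 11.0% without TES6 and 9.64% without TES7. These values were not taken for the other genes, so the lower CV without TES5 is not shown to be particular to the chromatin genes. The log2 values of any 2 animals correlated across these genes at Pearson r 0.985 to 0.992. Genes are not independent replicates, and FPKM values keep no read number, so the depth behind them is unknown.

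**Figure D3:**
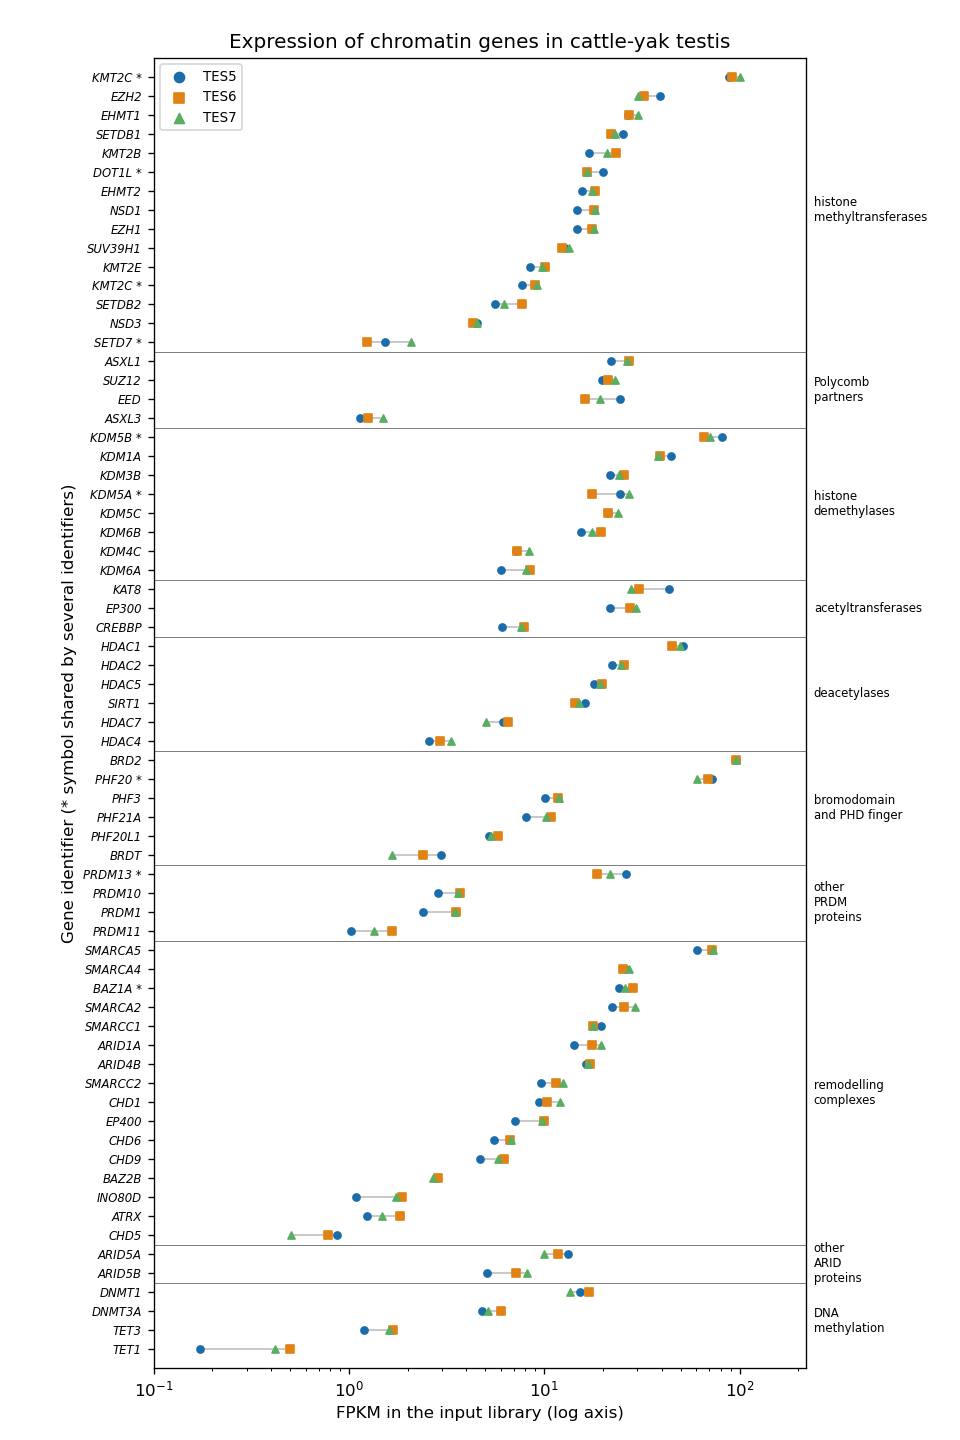
Points give FPKM in the 3 input libraries, by animal, on a log axis for the named identifiers, grouped by role; grey lines join the lowest and highest animal and an asterisk marks a symbol found on several identifiers. BRD2 lay at 95.4 to 96.3 FPKM as given, while BRDT ran from 1.67 in TES7 to 2.96 in TES5.

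Related genes were compared within the same animals as differences of log2(FPKM + 1). HDAC1 was higher than HDAC2 by 0.98 ± 0.19 (SD, n = 3), EP300 higher than CREBBP by 1.72 ± 0.08, EHMT1 higher than EHMT2 by 0.68 ± 0.11 and SMARCC1 higher than SMARCC2 by 0.67 ± 0.25. The difference was -0.97 ± 0.33 for EZH1 minus EZH2, -1.13 ± 0.10 for KDM6A minus KDM6B and -1.63 ± 0.26 for KDM5A minus KDM5B. The last pair used the 447 bp KDM5A identifier, which has the higher level, and with the long identifier the difference was -2.24, an alternative chosen after seeing the data. All 7 of these had the same direction in 3 of 3 animals and exceeded the spread between animals. SMARCA2 minus SMARCA4 was -0.04 ± 0.16, with SMARCA2 lower in TES5 and higher in TES6 and TES7, and without TES5 it was 0.05. In the exact paired permutation test (two-sided) the p was 0.25 for each of the 7 pairs, the smallest that 3 animals allow, and 0.286 after adjustment over the 8 pairs, so that no pair could pass a threshold of 0.05.

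**Figure D4:**
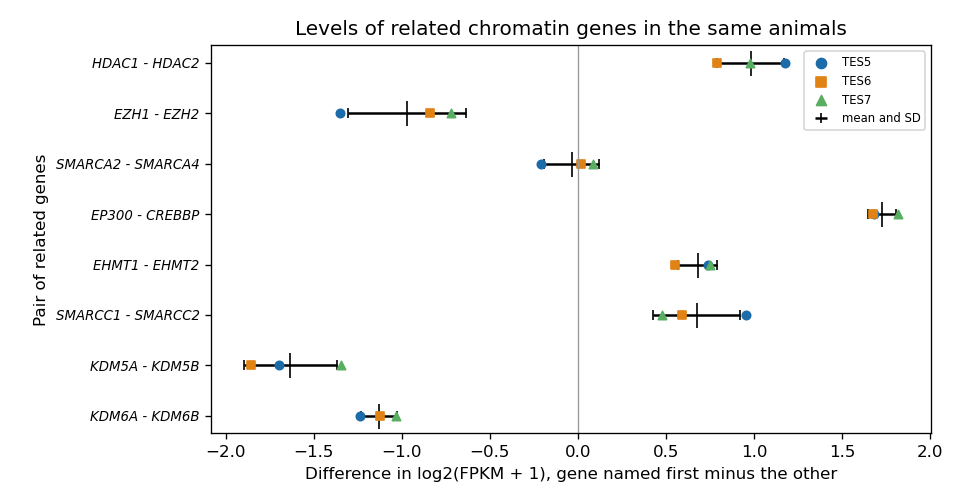
Points give the difference in log2(FPKM + 1) between the genes of 8 related pairs in TES5, TES6 and TES7, with the mean and SD as a bar. For 7 pairs all 3 animals lay on the same side of 0, and for SMARCA2 and SMARCA4 the animals lay on both sides.

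TES5 was more often the lowest animal in these genes than in others, a pattern noticed in the data and not tested. Of the 134 identifiers at 1 FPKM or more in every animal, TES5 was lowest in 74 (55.2%), TES6 in 31 and TES7 in 29, beside TES5 lowest in 41.8% of all genes with a peak that met the same limit. The median difference in log2(FPKM + 1), TES5 minus the mean of the others, was -0.11, beside -0.03 in the other genes with a peak. The share moved with gene span. TES5 was lowest in 10 of 28 chromatin genes below 20 kb, 19 of 46 between 20 and 60 kb, 27 of 39 between 60 and 120 kb and 18 of 21 from 120 kb upward. In the other genes the shares in the same bins were 32.2%, 39.8%, 52.7% and 58.9%.

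Across the 134 genes the difference had a Spearman rho of -0.39 with span and -0.41 with peak number, beside -0.23 and -0.15 in 7495 other genes. By role, TES5 was lowest in 21 of 29 remodelling genes and in 14 of 25 methyltransferases, but lowest in 11 and highest in 11 of 25 bromodomain and PHD finger genes. The largest negative differences were -0.52 in ARID5B and -0.49 in SMARCAD1, a remodeller of heterochromatin at 4.31, 6.31 and 6.63 FPKM. The largest positive ones were 0.56 in KAT8, 0.44 in EED and 0.38 in BRDT. ARID5B, SMARCAD1, KAT8 and EED were singled out here after their values were seen.

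Marker levels also differed between the animals. The summed spermatocyte markers were 63.3 FPKM in TES5, 40.5 in TES6 and 46.1 in TES7 (5 of 7 markers with an identifier), and the spermatid marker TEX29 was highest in TES5. The spermatocyte sum takes 1 level per symbol, though SYCP2 had 4 identifiers with a peak and DMC1 had 3. DMC1 alone was at 21.4, 8.72 and 15.4 FPKM. The summed spermatogonial markers were lowest in TES5 at 15.8 FPKM, beside 18.9 and 24.2 (3 of 8 markers). The Sertoli sum was 50.8, 60.8 and 59.9 FPKM (2 of 7) and the Leydig marker STAR 100.2, 108 and 112 FPKM (1 of 5). The myoid sum was 262, 295 and 274 FPKM (3 of 3) and the macrophage sum 11.7, 12.8 and 14.5 FPKM (3 of 3), where CD163 had the same order (3.64, 4.50 and 6.61 FPKM) and CD68 the opposite one (3.97, 3.69 and 2.92 FPKM). The part of cell makeup, RNA quality or library in the TES5 values was not tested.

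**Figure D5:**
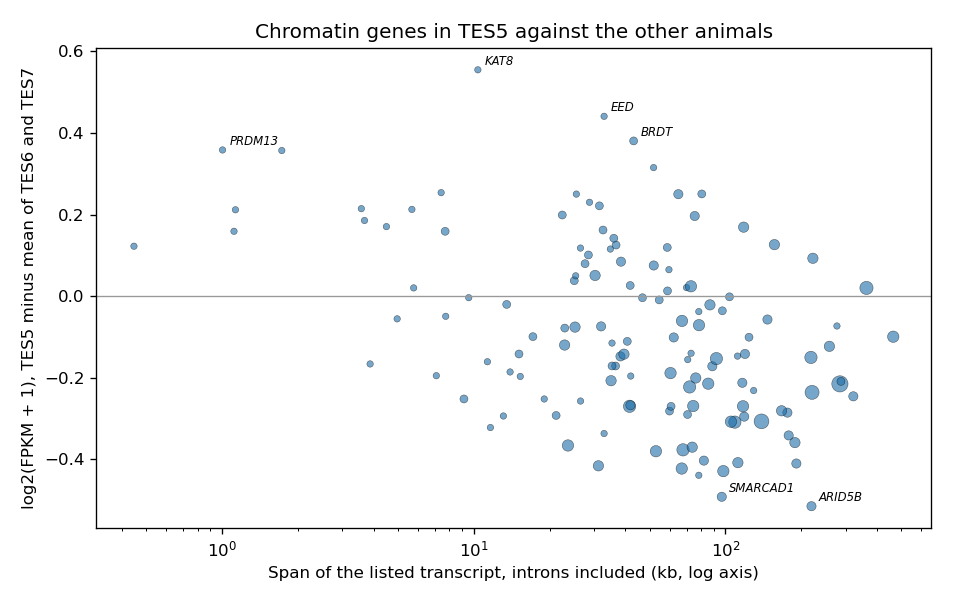
Each point is 1 of 134 identifiers, with the span of the listed transcript in kb on a log axis and the difference in log2(FPKM + 1) between TES5 and the mean of TES6 and TES7; larger points have more peaks. Of the 21 genes of 120 kb or more, 18 had their lowest level in TES5.

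Several of these values rest on gene models that divide a symbol. Of the 127 symbols, 13 were found on more than 1 identifier, with 29 identifiers and 56 peaks in all, always on a single chromosome, and for 5 of the 13 also on a single strand. The identifiers of a symbol differed up to 76.9-fold in mean FPKM, in KDM5B. Counted by symbol, 75.6% rather than 65.0% had 2 or more peaks. The 46.0% of all genes with a peak was counted by identifier only, so it cannot be set beside the 75.6%. A further limit is overlap: 10 identifiers overlap another listed gene, each on the opposite strand, and 5 have a peak in the overlap, among them SETDB1 with CERS2 and KDM1B with DEK.

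Genes of the same complexes that the symbol rule did not reach were read from a list of 93. Of these, 88 were RefSeq symbols, and BMI1 and CARM1 were counted again under their other names PCGF4 and PRMT4. A peak was listed for 60 of the 93, beside 45.2% of all named RefSeq protein-coding symbols. Of the 60, 37 had 2 or more peaks by symbol, beside 46.0% of all genes with a peak, counted by identifier. The median level of the 60 was 14.7 FPKM. The most peaks were in ASH1L, an H3 lysine 36 methyltransferase, with 10 on 2 identifiers, of which the better expressed was at 15.2, 16.5 and 16.6 FPKM. JMJD1C, a relative of the KDM3 demethylases, had 8 on 2 identifiers at 22.8, 29.5 and 27.3 FPKM, and MBD5, a methyl-CpG-binding domain protein, had 7 at 1.79, 2.13 and 2.10 FPKM. BPTF, the largest subunit of the NURF remodeller, had 6 at 9.02, 13.001 and 12.6 FPKM. ASH1L, JMJD1C, MBD5 and BPTF, chosen after their values were seen, were all lowest in TES5. DAXX, the partner of ATRX and chosen likewise, had 3 peaks at 59.0, 55.6 and 57.0 FPKM, far above ATRX itself in each animal.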

How the data were processed

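The data were MeRIP-seq libraries of testis from 3 cattle-yaks, an immunoprecipitate and an input of each. Per the labels and the study's methods, the authors trimmed reads with Trimmomatic, aligned them with HISAT2 (version 2.0.4) to LU_Bosgru_v3.0 (Ensembl release 99) and called peaks with MeTDiff. They deposited 1 annotated peak list for the group and FPKM per gene and input library. The program behind the FPKM values and its use of strand are not given in the sources used here, and low values showed no steps of whole reads, so depth could not be recovered. No peak sequences were read, since no genome was used here.

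Peaks and FPKM were joined by gene identifier and summarised with pandas 2.3.3 and scipy 1.17.1, after steps were tested on simulated data. Shares have Wilson 95% intervals. Related genes were compared as log2(FPKM + 1) by an exact paired permutation test with Benjamini-Hochberg adjustment. The members, lists, pairs and TES5 pattern were chosen with earlier results of these data known. Named genes were those with the most peaks or the highest level in each role, the extremes of peak number, level, CV and width, 35 of 51 listed symbols that had a peak, and the 8 of 20 listed pairs with a peak on both genes. Alternatives were the peak width, merging, weighting by width, counting by symbol, the FPKM minimum, the pseudocount and leaving out each animal.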

Additional observations from a re-analysis of the deposited data

How the results depend on the processing

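Merging peaks at most 100 bp apart left 363 of the 379 peaks, and 65.0% of the identifiers had 2 or more peaks either way. Of the 379 peaks, 152 were at most 1000 bp wide. The 3' UTR class share was 19.1% among these and 6.71% weighted by width, and the 5' UTR class share 24.6% weighted by width. By symbol, 75.6% had 2 or more peaks, with no share by symbol taken for the other genes. The median level was 12.4 FPKM with a minimum of 1 FPKM, 12.7 FPKM with identifiers of a symbol summed, and 10.9 to 11.2 FPKM with each animal left out. The median CV was 5.12 to 11.0% with each animal left out, and 5.12% was the value without TES5. SMARCA2 minus SMARCA4 ran from -0.10 to 0.05 with each animal left out, and without TES5 it changed sign, to 0.0516. The other 7 pair differences kept their direction under each alternative run. Without the 2 peaks outside their transcript and the 2 identifiers that lie wholly inside their peak, alternatives chosen after seeing the data, the count was 375 peaks, and TES5 was lowest in 73 genes. Rescaled to equal sums or by median ratios, also chosen after seeing the data, TES5 was lowest in 91 and 75. Equal sums multiplied every gene by 0.958 in TES5, 1.03 in TES6 and 1.01 in TES7. That step lowers TES5 against the others in all genes alike. The share over all genes with a peak was not taken after rescaling, so the 91 shows no stronger pattern in the chromatin genes. Mean levels of the 69 named identifiers moved by less than 1 SD under 345 alternatives. Most of these dropped 1 of the 3 animals. With 3 values, such a shift is always below their own SD, so this outcome was fixed beforehand. The rest were the rescalings, whose factors lay between 0.958 and 1.03. The 345 alternatives are therefore no measure of how firm the levels are. No paired analysis was possible because the design has a single group of input libraries, so no groups share replicate numbers in a comparison of values; the pair differences are taken within animals. Precision is limited by 3 animals, a pooled peak list without scores, and FPKM values without read numbers.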

Other observations

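The X chromosome held 10 of the 143 identifiers (6.99%) with 20 peaks, beside 3.47% of all genes with a peak. They were ATRX, HDAC6, KDM5C, KDM6A, NSDHL, PHF6, PHF8 on 2 identifiers, SMARCA1 and SUV39H1. SMARCA1, an ISWI ATPase related to SMARCA5, was the best expressed of them at 27.3, 36.1 and 36.7 FPKM in TES5, TES6 and TES7. HDAC6, a cytoplasmic deacetylase of tubulin, was at 19.6, 16.8 and 15.9 FPKM. PHF6, a nucleolar PHD finger protein, was at 1.90, 1.62 and 0.756 FPKM. SMARCA1 was lowest in TES5, whereas HDAC6 and PHF6 were highest there. Chromosome 8 held 13 of the 143 identifiers (9.09%) with 37 peaks, among them DNMT1, SMARCA4, NSD1 and DOT1L, beside 5.68% of all genes with a peak.

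Gene Ontology terms in the peak list followed the choice by symbol. Of the 124 identifiers with a term, 79 were annotated to the nucleus (63.7%, beside 35.3% of 7944 genes with a term), 28 to chromatin binding (22.6%, beside 1.84%), 15 to chromatin remodeling and 12 to histone-lysine N-methyltransferase activity. The term RNA-directed DNA polymerase activity stood at 16 of them (12.9%), beside 16.7% of all, a term that none of these proteins is known for.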
